A study of Mus musculus with 4 samples.

Results

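The 8 genes described here are 3 nuclear receptors for steroid hormones (Pgr, Esr1 and Nr3c1), a membrane-associated progesterone receptor component (Pgrmc1), 2 cochaperones of those receptors (Fkbp4 and Fkbp5), a coactivator (Ncoa2) and the hormone-induced kinase gene Sgk1. They were chosen by gene symbol, and all 8 were found among the 23235 genes of each of the 2 deposited tables. The tables hold RNA levels in luminal epithelium, the cell layer that lines the uterine cavity, and in the stroma beneath it, both cut from mouse uterus by laser capture microdissection. Uteri were taken at day 4 of pseudopregnancy, a hormonal state without embryos that follows mating to vasectomized males. Each compartment gave 1 library from a uterus of genotype Msx1d/d/Msx2d/d, described as lacking the homeobox genes Msx1 and Msx2 in the uterus, and 1 library from a floxed Msx1f/f/Msx2f/f control. The series text speaks of 1 mouse per genotype, so genotype and animal cannot be told apart. The animals' age was not given, and no difference between the genotypes has a replicate or a test. Epithelium against stroma was measured once in each genotype, and that difference was not tested because the tables were normalized separately. The recombinase used was not given in the sources used here. Uterine deletion of floxed genes is often done with Cre placed in the Pgr locus, and whether such an allele was present, and added reads to Pgr or removed them, was not tested.

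Steroid hormones act through receptors that are kept ready for hormone by the Hsp90 chaperone and its cochaperones, then move onto DNA and recruit coactivators such as Ncoa2. In the uterus, estrogen acting through Esr1 induces Pgr and drives epithelial growth, and progesterone acting through Pgr opposes that growth and makes the tissue receptive to an embryo. Fkbp4 favours hormone binding by the progesterone and glucocorticoid receptors, whereas Fkbp5 lowers it and is itself induced by the same hormones. Sgk1 was named for its induction by serum and glucocorticoids and controls ion transport in epithelia.

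The start-site sequences of these genes are shown because the levels of 4 of them are set side by side below: Sgk1 and Pgr, which had the largest ratios between the genotypes, and the cochaperone pair Fkbp4 and Fkbp5, which differed from each other. RefSeq windows of 300 bases, 250 before to 50 after an annotated transcript start in build GRCm38.p6, were found for 6 of the 8 genes, 12 windows in all, of which Sgk1 has 6 and Esr1 has 2. The progesterone and glucocorticoid receptors bind the same palindrome of AGAACA, any 3 bases and TGTTCT, which reads the same on both strands. It occurs in 0.00913% of 32851 such windows, or 3 of them, and 1 of the 3 is a window of Sgk1. The element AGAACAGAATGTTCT, in capitals in the first sequence, begins 189 bases before one annotated start of Sgk1 and 965 bases before the next start. The capitals in the other sequences mark the GC box GGGCGG and the CCAAT box on either strand, which occur in 35.7% and 37.4% of windows.
Sgk1, chr10:21993640-21993939, plus strand: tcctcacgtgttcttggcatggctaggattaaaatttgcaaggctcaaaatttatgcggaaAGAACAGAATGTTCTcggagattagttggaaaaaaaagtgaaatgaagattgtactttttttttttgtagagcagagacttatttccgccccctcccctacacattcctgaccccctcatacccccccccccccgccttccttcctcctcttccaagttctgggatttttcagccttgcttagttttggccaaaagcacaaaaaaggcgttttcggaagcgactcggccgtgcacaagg
Pgr, chr9:8899583-8899882, plus strand: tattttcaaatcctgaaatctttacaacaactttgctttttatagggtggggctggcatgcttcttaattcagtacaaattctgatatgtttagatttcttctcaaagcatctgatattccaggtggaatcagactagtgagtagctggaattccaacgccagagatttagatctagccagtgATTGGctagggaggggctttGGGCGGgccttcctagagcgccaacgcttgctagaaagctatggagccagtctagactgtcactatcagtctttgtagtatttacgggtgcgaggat
Fkbp4, chr6:128438607-128438906, minus strand: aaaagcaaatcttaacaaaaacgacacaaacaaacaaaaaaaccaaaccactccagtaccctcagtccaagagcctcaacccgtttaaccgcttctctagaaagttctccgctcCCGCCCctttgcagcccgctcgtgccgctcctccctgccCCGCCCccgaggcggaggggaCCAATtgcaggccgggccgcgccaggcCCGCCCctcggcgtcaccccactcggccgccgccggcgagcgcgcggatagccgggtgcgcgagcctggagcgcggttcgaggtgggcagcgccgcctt
Fkbp5, chr17:28486100-28486399, minus strand: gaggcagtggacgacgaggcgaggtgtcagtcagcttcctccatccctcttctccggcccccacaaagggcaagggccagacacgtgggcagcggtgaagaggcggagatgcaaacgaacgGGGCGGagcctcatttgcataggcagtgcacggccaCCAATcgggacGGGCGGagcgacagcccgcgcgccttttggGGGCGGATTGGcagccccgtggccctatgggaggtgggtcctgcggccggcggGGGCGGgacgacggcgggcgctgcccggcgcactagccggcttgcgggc

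The printed Sgk1 window also held 1 GC box, left in lower case, and 0 CCAAT boxes. The Pgr window held 1 GC box and 1 CCAAT box. Fkbp4 held 3 GC boxes and 1 CCAAT box, and Fkbp5 held 4 and 2, with 1 GC box of Fkbp5 directly joined to a CCAAT box. The estrogen response element (GGTCA, any 3 bases, TGACC), found in 0.0700% of windows, was in none of the 12. Neither Fkbp4, Fkbp5, Pgr nor Esr1 had the single arm AGAACA or its complement TGTTCT, which 19.0% of windows hold and which is also counted within the longer palindrome, while Pgrmc1 had 1. These matches describe letters in a short window and say nothing about binding here, and the RNA values are per gene, so the start that Sgk1 transcripts used was not seen.

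The 4 libraries differed in depth, marker content and how far they matched their labels. Depth estimated from the lowest values was 6.31 megareads in the epithelial control, 90.6 megareads in the epithelial library labelled knockout, 42.6 megareads in the stromal control and 61.3 megareads in the stromal library labelled knockout. In luminal epithelium Msx1 stood at 23.2 and 13.6 RPKM, control first (RPKM is reads per kilobase of transcript, scaled to the library's total). Msx2 stood at 1.31 and 2.06 RPKM there, without the fall that the label would give. The control value of Msx2 rested on 18.6 estimated reads and its partner's on 421, so a rise of Msx2 is not shown. In stroma Msx1 and Msx2 were at or below 0.135 RPKM. The deleted exons were not given, so these reads do not settle the labels, and the libraries are called labelled knockout throughout. The 12 general epithelial markers summed to 456 and 519 RPKM in the epithelial libraries and to 1.84 and 0.558 RPKM in stroma. The 10 stromal markers summed to 376 and 543 RPKM in stroma and to 13.5 and 5.37 RPKM in epithelium, so the epithelial control held 3.58% of the stromal control's sum and its partner 0.989%. The 13 leukocyte markers summed to 22.5 and 11.9 RPKM in epithelium and 140 and 63.7 RPKM in stroma, control first. Cd52 made up most of the 11.9 RPKM and was higher there, at 3.80 and 9.01 RPKM. Cd68 and Cd3e were also higher, and the rest were lower, such as Lyz2 at 7.50 and 0.705 RPKM and Cd74 at 6.36 and 0.960 RPKM. Of the 7 glandular markers, 5 were above 0 in each epithelial library, with sums of 1.33 and 6.02 RPKM, and Spink3 and Prss29 were listed at 0 in both. Aldh1a1 made up most of both sums, at 0.789 and 4.86 RPKM. Lif and Cxcl15 were also higher in the library labelled knockout, and Foxa2 and Gsdmc were lower. In epithelium the endothelial, smooth muscle, erythrocyte and mesothelial lists each summed to less in the library labelled knockout, and the control sums were 0.335, 4.95, 0.727 and 0.254 RPKM. The part of these differences in the results was not tested. Counting limits given below are 95% exact (Clopper-Pearson) limits on estimated reads. They cover counting error only, since amplified reads are not independent molecules and animals vary.

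The 8 genes spanned from 0.514 to 45.4 RPKM, and their order differed between the compartments, whose tables were normalized separately. In control luminal epithelium the cochaperone gene Fkbp4 was highest at 28.0 RPKM, followed by Sgk1 at 17.6 and Pgrmc1 at 15.1 RPKM. Esr1 was at 7.79, Ncoa2 at 5.29, Pgr at 3.87, Fkbp5 at 2.94 and Nr3c1 at 0.547 RPKM. Of the 7 pairs of neighbours in that order, Sgk1 with Pgrmc1 and Pgr with Fkbp5 were not apart by their counting limits. In control stroma Pgrmc1 was highest at 10.2 RPKM, and Fkbp5 lowest at 0.514 RPKM, with Fkbp4 and Esr1 not apart at 6.49 and 6.02 RPKM. In the epithelial library labelled knockout Sgk1 and Fkbp4 stood level at the top, at 45.4 and 45.3 RPKM (ratio 1.004, limits 0.975 to 1.03). In the stromal library labelled knockout Pgrmc1 and Fkbp4 were not apart at 10.9 and 10.8 RPKM, nor were Esr1 and Pgr at 7.72 and 7.62 RPKM. Among all genes of the epithelial library labelled knockout Sgk1 and Fkbp4 ranked 250th and 252nd.

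**Figure D1:**
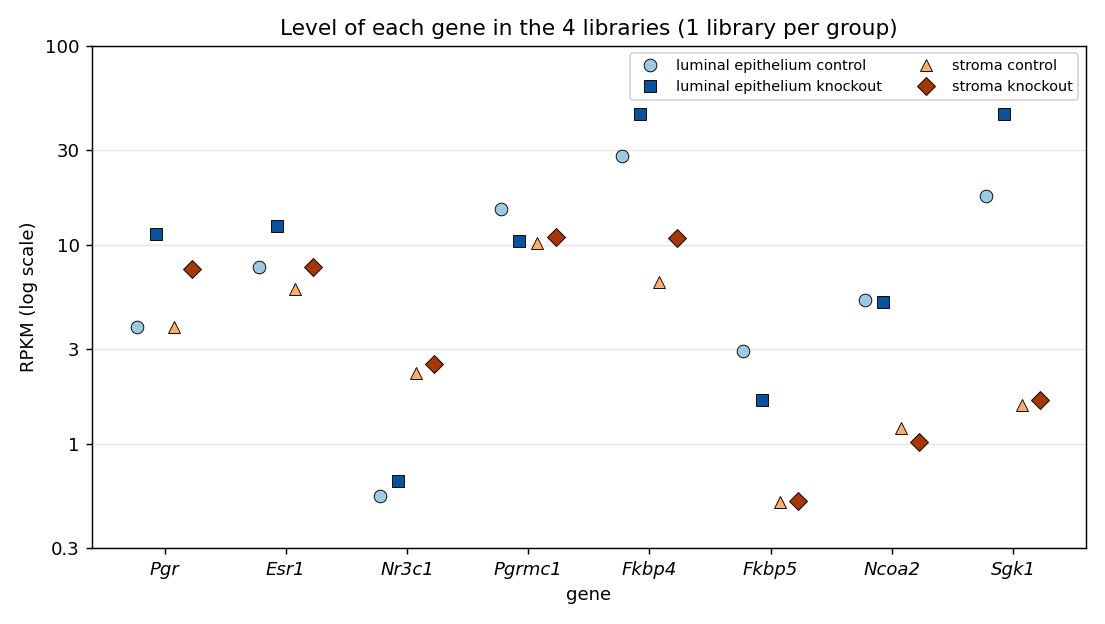
RPKM of each of the 8 genes (log scale) in the 4 libraries, 1 point per library and no error bars because each group has 1 library. Sgk1 ranges from 1.57 RPKM in control stroma to 45.4 RPKM in the epithelial library labelled knockout, while Pgrmc1 stays between 10.2 and 15.1 RPKM.

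The first comparison set the library labelled knockout against the control within each compartment. In luminal epithelium Pgr and Sgk1 were more than 2-fold higher, Esr1 and Fkbp4 were higher by smaller ratios, Fkbp5 and Pgrmc1 were lower, and Nr3c1 and Ncoa2 were not separable from equal levels. In stroma Pgr, Fkbp4 and Esr1 were higher and the other 5 genes were not separable from equal levels. Differences are log2((labelled knockout + 1)/(control + 1)), which understates low genes, and a gene is counted when it reaches 1 on that scale and a mean of 1 RPKM over both libraries. In epithelium 2 of the 7 genes that passed the minimum were higher (background 5.03% of 7736 genes) and 0 were lower (1.99%). In stroma 0 of 7 were higher (1.45% of 7723 genes) and 0 lower (1.59%). By counting limits that leave out 1, 4 of all 8 were higher and 2 lower in epithelium, against 24.7% and 13.6% of genes at the minimum with a known length. In stroma 3 of 8 were higher and 0 lower, against 32.3% and 11.7%, which is near the background. The median difference of the 8 genes was 0.36 in epithelium and 0.09 in stroma, beside 0.10 and 0.07 for all genes at the minimum.

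**Figure D2:**
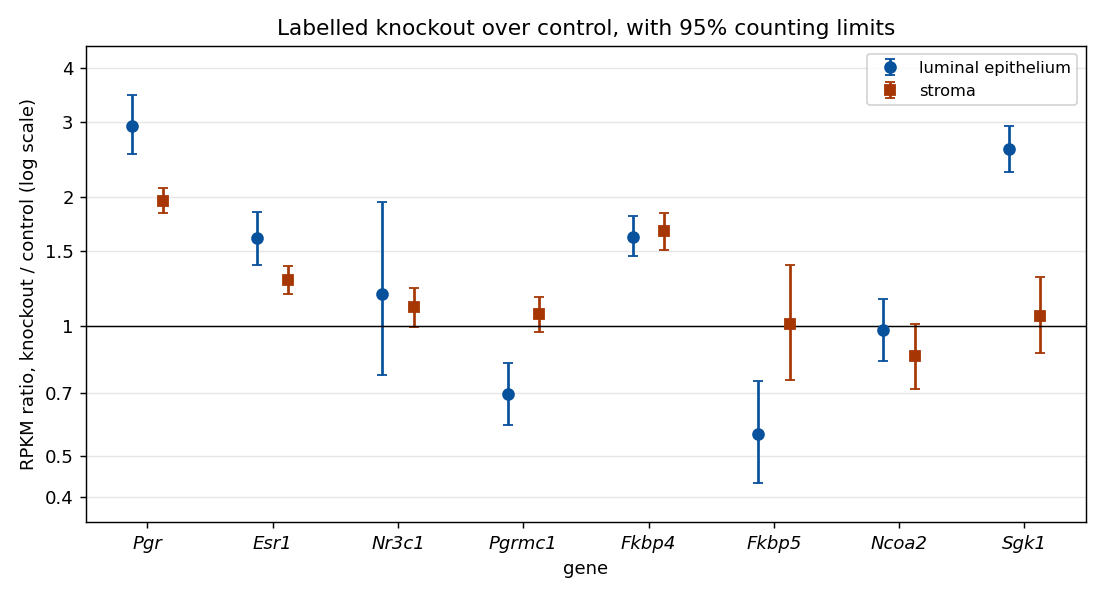
Ratio of RPKM in the library labelled knockout over the control for each gene (log scale), with circles for luminal epithelium, squares for stroma and bars for 95% counting limits. Pgr and Sgk1 stand highest in epithelium at 2.93 and 2.59, and Fkbp5 stands lowest at 0.563.

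Pgr (chr9:8899833-8968611, mm9), the nuclear progesterone receptor gene, was at 3.87 RPKM in the epithelial control, 11.4 in the epithelial library labelled knockout, 3.88 in the stromal control and 7.62 in the stromal library labelled knockout. As deposited, both controls stood at nearly the same level and both libraries labelled knockout above them. With upper quartile scaling the log2 difference of the epithelial from the stromal control was -0.44, so that likeness depends on the scaling. The ratio was 2.93 in epithelium, with counting limits of 2.52 and 3.46, and 1.96 in stroma, with limits of 1.83 and 2.10. The epithelial ratio was 1.49 times the stromal ratio, with limits of 1.26 and 1.79. In stroma its log2 difference of 0.82 lay above that of 98.3% of genes at the minimum. With 5 RPKM added in place of 1, its epithelial difference was 0.88 and no longer counted as 2-fold. In bulk tissue fewer cells of a type and less RNA per cell cannot be told apart, for this gene and all others here.

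Esr1 (chr10:5342780-5734495, mm9), which encodes estrogen receptor alpha, was at 7.79 and 12.5 RPKM in epithelium and 6.02 and 7.72 RPKM in stroma, control first. Its ratios were 1.60 with limits of 1.39 and 1.85, and 1.28 with limits of 1.19 and 1.38. When the 50 most abundant genes were left out of the scaling sum, the median difference of all epithelial genes shifted by -0.18, and Esr1 went from 0.62 to 0.39. Of all genes 300 were then 2-fold higher and 209 lower, in place of 389 and 154. Relative to the median of all genes as deposited, Esr1 was at 0.52 and Pgr at 1.24 on the log2 scale.

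A ratio of genes within 1 library does not depend on how libraries are scaled. Pgr over Esr1 was 0.497 in the epithelial control (limits 0.400 and 0.611) and 0.910 in its partner (0.876 and 0.944). In stroma it was 0.645 (0.592 and 0.702) and 0.986 (0.932 and 1.04). The receptors were thus near equal RPKM in both libraries labelled knockout, and Pgr was below Esr1 in both controls. Between the genotypes this ratio differed by 1.83 times in epithelium, with exact conditional limits of 1.48 and 2.28, and by 1.53 times in stroma, with limits of 1.38 and 1.70.

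Nr3c1, the glucocorticoid receptor gene, was the one nuclear receptor of the 3 that lay below its stromal level by counting limits. It was at 0.547 and 0.649 RPKM in epithelium, below the minimum, and at 2.27 and 2.52 RPKM in stroma. The epithelial control rested on 21.1 estimated reads for Nr3c1, and its ratio of 1.19 had limits of 0.769 and 1.95. The stromal ratio of 1.11 had limits of 0.999 and 1.23. Esr2, for estrogen receptor beta, reached at most 0.102 RPKM, and Nr3c2, for the mineralocorticoid receptor, at most 0.152 RPKM.

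Pgrmc1 (chrX:34138220-34146074, mm9), a heme-binding membrane protein tied to progesterone action, went the other way in epithelium. Epithelial Pgrmc1 was 15.1 RPKM (control) and 10.5 RPKM (labelled knockout), with a ratio of 0.694 and limits from 0.590 to 0.824. In stroma it was at 10.2 and 10.9 RPKM (ratio 1.07, limits 0.971 to 1.17). Its relative Pgrmc2 was at 5.89 and 4.29 RPKM in epithelium (ratio 0.728, limits 0.596 to 0.901), and at 1.498 and 1.69 RPKM in stroma. The membrane progestin receptors Paqr5 (1.37 and 1.29 RPKM) and Paqr8 (1.88 and 1.94 RPKM) were low in epithelium and at or below 0.279 RPKM in stroma, while Nenf, a small secreted relative of Pgrmc1, was at 2.68 and 3.13 RPKM in epithelium. Of the 4 other membrane receptor genes that passed the minimum in epithelium, 2 were above 0, beside 61.9% of all genes as deposited, and 0 were 2-fold higher or lower. With upper quartile scaling 1 was above 0, and with sums without the 50 most abundant genes 0 were. The medians of all genes were then -0.03 and -0.08.

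Fkbp4 (chr6:128380125-128388649, mm9), which encodes the cochaperone FKBP52, was at 28.0 and 45.3 RPKM in epithelium and 6.49 and 10.8 RPKM in stroma. Its ratios were close, 1.62 with limits of 1.46 and 1.804 and 1.67 with limits of 1.51 and 1.84, and their quotient of 0.970 had limits of 0.839 and 1.13. In stroma its difference of 0.66 lay above that of 97.8% of genes, and in epithelium its 0.67 above that of 90.6%. With the sums without the 50 most abundant genes the epithelial difference was 0.43.

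Fkbp5 (chr17:28536040-28623057, mm9), which encodes FKBP51, was at 2.94 RPKM in the epithelial control and 1.66 RPKM in its partner (ratio 0.563, limits 0.432 to 0.746). The control value rested on 62.1 estimated reads. In stroma Fkbp5 was at 0.514 and 0.521 RPKM (ratio 1.01, limits 0.7495 to 1.39), below the minimum. The 2 cochaperones differed in direction in epithelium: Fkbp4 over Fkbp5 was 9.51 (limits 7.25 and 12.7) in control and 27.3 (24.96 and 29.95) in the library labelled knockout. In stroma it was 12.6 (9.91 and 16.4) and 20.8 (17.0 and 25.4). The ratio differed between the genotypes by 2.87 times in epithelium, with limits of 2.12 and 3.83, and by 1.65 times in stroma, with limits of 1.18 and 2.26.

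**Figure D3:**
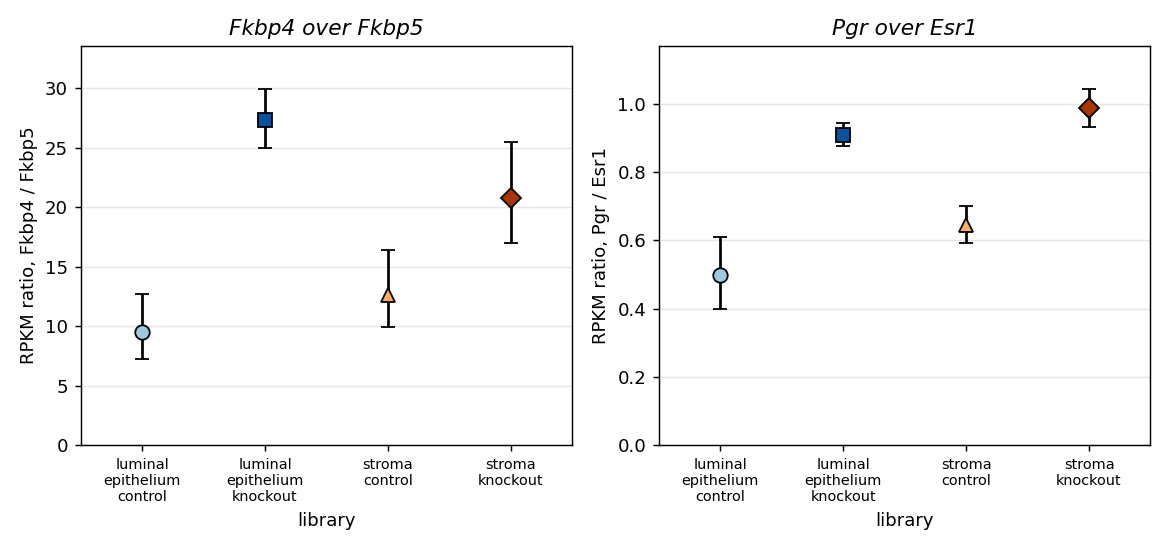
RPKM of Fkbp4 over Fkbp5 (left) and of Pgr over Esr1 (right) within each of the 4 libraries, with 95% counting limits. In each compartment the library labelled knockout lies above its control, at 27.3 against 9.51 for the cochaperones in epithelium and at 0.986 against 0.645 for the receptors in stroma.

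Other genes of the Hsp90 machinery were measured beside the cochaperones. Among those at the minimum, 13 of 17 were above 0 in epithelium and 14 of 16 in stroma, with medians of 0.25 and 0.28, and 0 were 2-fold apart in either. Of all genes at the minimum 61.9% and 64.2% were above 0, and 38.1% and 35.8% below. In epithelium 11 of 17 were above 0 with upper quartile scaling and 10 of 17 with sums without the 50 most abundant genes, where the medians of all genes were -0.03 and -0.08. In stroma the count was 14 of 16 under both. In stroma the Hsp70 gene Hspa8 was at 89.0 and 135 RPKM, its cofactors Dnaja1 at 3.09 and 5.58 and Dnajb1 at 1.54 and 2.91 RPKM, and Hsp90aa1, the inducible Hsp90 form, at 15.04 and 22.9 RPKM. In epithelium Hsp90aa1 was lower instead, at 16.5 and 12.6 RPKM (ratio 0.762, limits 0.679 to 0.856) against 1.52 with limits of 1.44 and 1.60 in stroma. Of the FKBP proteins outside the receptor complex, Fkbp1a, the FK506-binding protein FKBP12, was at 8.08 and 13.7 RPKM in epithelium, and Fkbp8 at 12.6 and 17.9 RPKM. Fkbp7 and Fkbp14, which reside in the endoplasmic reticulum, stood at 3.09 and 4.33 RPKM (Fkbp7) and 1.998 and 2.99 RPKM (Fkbp14) in stroma. Of that list 3 of 5 genes at the minimum were above 0 in epithelium and 8 of 10 in stroma (2 of 5 and 6 of 10 under both rescalings), and 0 were 2-fold apart.

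Ncoa2 (chr1:13129240-13364164, mm9), a p160 coactivator that nuclear receptors recruit once hormone is bound, did not separate by genotype. It was at 5.29 and 5.18 RPKM in epithelium (ratio 0.979, limits 0.831 to 1.16), and at 1.199 and 1.02 RPKM in stroma (ratio 0.853, limits 0.715 to 1.01). Among the other coactivators 10 of 18 were above 0 in epithelium and 14 of 19 in stroma, and 0 were 2-fold apart. With upper quartile scaling 6 of 18 and 10 of 19 were above 0. With sums without the 50 most abundant 5 of 18 and 12 of 19 were. As deposited, 61.9% and 64.2% of all genes at the minimum were above 0. Under the 2 rescalings the medians of all genes in epithelium were -0.03 and -0.08. Ncoa7 was at 5.57 and 3.51 RPKM in epithelium (ratio 0.630, limits 0.522 to 0.770), Ncoa6 at 1.39 and 1.95 RPKM, and the arginine methyltransferase genes Prmt1 and Carm1 at 3.99 and 5.74 RPKM and at 1.499 and 2.06 RPKM in stroma. Among corepressors, Nrip1, which represses estrogen receptor activity, was at 6.85 and 5.20 RPKM in epithelium, and Phb2 at 9.11 and 13.4 RPKM. In stroma Cited2, a transcriptional cofactor, was lower at 1.46 and 0.700 RPKM (ratio 0.480, limits 0.354 to 0.649). Its log2 difference with 1 RPKM added was -0.53, short of the 2-fold mark. Of the corepressor list 4 of 7 were above 0 in epithelium and 6 of 9 in stroma, and 0 were 2-fold apart. In epithelium 1 of 7 was above 0 under both rescalings, and in stroma 4 of 9 with upper quartile scaling.

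Sgk1 (chr10:21601990-21719708, mm9) had the largest ratio between compartments of the 8 genes. It was at 17.6 RPKM in the epithelial control and 45.4 RPKM in its partner, against 1.57 and 1.67 RPKM in stroma. The epithelial ratio of 2.59 had limits of 2.29 and 2.93, and the stromal ratio of 1.06 had limits of 0.868 and 1.30. The first was 2.44 times the second, with limits of 1.92 and 3.09. The palindrome printed above lies in 1 of the 6 start-site windows of this gene, and the Pgr and Fkbp5 windows did not hold it. Whether the palindrome has a part in these levels was not tested. Sgk1 carries 6 RefSeq identifiers in the deposited table under 1 value.

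Relatives, partners and substrates of Sgk1 were measured beside it. Sgk3 was at 3.51 and 3.44 RPKM in epithelium, and Sgk2 was at or near 0. Of the 9 other genes of this list at the minimum in epithelium 3 were above 0, beside 61.9% of all genes as deposited, and 0 were 2-fold apart. Under both rescalings 1 was above 0, where the medians of all genes were -0.03 and -0.08. Foxo1, a transcription factor that Sgk1 phosphorylates, was at 1.85 and 3.15 RPKM (ratio 1.70, limits 1.39 to 2.10), and its relative Foxo3 was at 2.52 and 1.87 RPKM (ratio 0.743, limits 0.541 to 1.04). In stroma Foxo3 was at 2.23 and 1.38 RPKM (ratio 0.619, limits 0.516 to 0.743). The substrate gene Ndrg1 was at 2.82 and 1.81 RPKM in epithelium (ratio 0.644, limits 0.475 to 0.883). Scnn1b, a subunit of the epithelial sodium channel, was at 0.876 and 1.14 RPKM in stroma (ratio 1.30, limits 0.986 to 1.70). In epithelium Scnn1b was at or below 0.0709 RPKM. In stroma 4 of 9 genes of the list were above 0, beside 64.2% of all genes as deposited, and 0 were 2-fold apart. With upper quartile scaling 2 of 9 were above 0.

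Genes known to be induced by glucocorticoids pointed in both directions in epithelium. Of the 12 such genes at the minimum beside Sgk1 and Fkbp5, 6 were above 0, beside 61.9% of all genes. Of these 12 genes 1 was 2-fold higher (5.03% of all genes) and 0 were lower (1.99%). The higher one was Nfkbia, the inhibitor of NF-kappaB, at 13.2 and 42.3 RPKM (ratio 3.21, limits 2.66 to 3.88). Errfi1, a feedback inhibitor of the EGF receptor, was at 6.10 and 11.8 RPKM (ratio 1.94, limits 1.61 to 2.38), and the metallothionein gene Mt1 at 323 and 499 RPKM. Zbtb16, a zinc finger factor also induced by progesterone, was lower, at 4.98 and 2.30 RPKM (ratio 0.462, limits 0.390 to 0.552). Its log2 difference of -0.86 did not reach the 2-fold mark. In stroma Zbtb16 was at 3.56 and 2.44 RPKM (ratio 0.686, limits 0.618 to 0.760). Of the 9 genes at the minimum there 5 were above 0, beside 64.2% of all genes as deposited, and 0 were 2-fold apart. With upper quartile scaling 4 of 9 were above 0.

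Enzymes that shape local steroid supply were few. Of 15 measured, 4 reached the minimum in each compartment. In epithelium 3 of these 4 were above 0, beside 61.9% of all genes as deposited. Under both rescalings 2 of 4 were above 0, where the medians of all genes were -0.03 and -0.08. In stroma 4 of 4 were above 0, beside 64.2% of all genes as deposited. With upper quartile scaling 3 of 4 were above 0, where the median of all genes was -0.01. Hsd17b4, a peroxisomal enzyme that can inactivate estradiol, was 2-fold lower in epithelium, at 12.3 and 5.59 RPKM (ratio 0.454, limits 0.390 to 0.531), and at 2.71 and 3.16 RPKM in stroma. It was the 1 enzyme of the 4 counted as lower in epithelium, beside 1.99% of all genes. With a pseudocount of 5 RPKM Hsd17b4 was no longer counted. Srd5a1, a steroid reductase, was at 1.06 and 2.08 RPKM in epithelium, and Hsd17b11 at 1.60 and 2.44 RPKM in stroma. Hsd11b2, which inactivates glucocorticoid, was at 0.524 and 0.286 RPKM in epithelium and at 12.4 and 21.9 RPKM in stroma, where its ratio of 1.77 had limits of 1.64 and 1.92. Among transcription factors that work beside these receptors, 3 of 6 were above 0 in epithelium and 4 of 10 in stroma, and 0 were 2-fold apart. Of all genes 61.9% and 64.2% were above 0. Nr2f2, which encodes COUP-TFII, was at 7.65 and 9.34 RPKM in stroma. In epithelium Nr2f2 was at 2.44 and 3.36 RPKM (ratio 1.38, limits 1.02 to 1.94). Klf9, a progesterone receptor partner, was at 1.78 and 2.77 RPKM in epithelium, and Ahr at 1.72 and 1.13 RPKM in stroma.

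**Figure D4:**
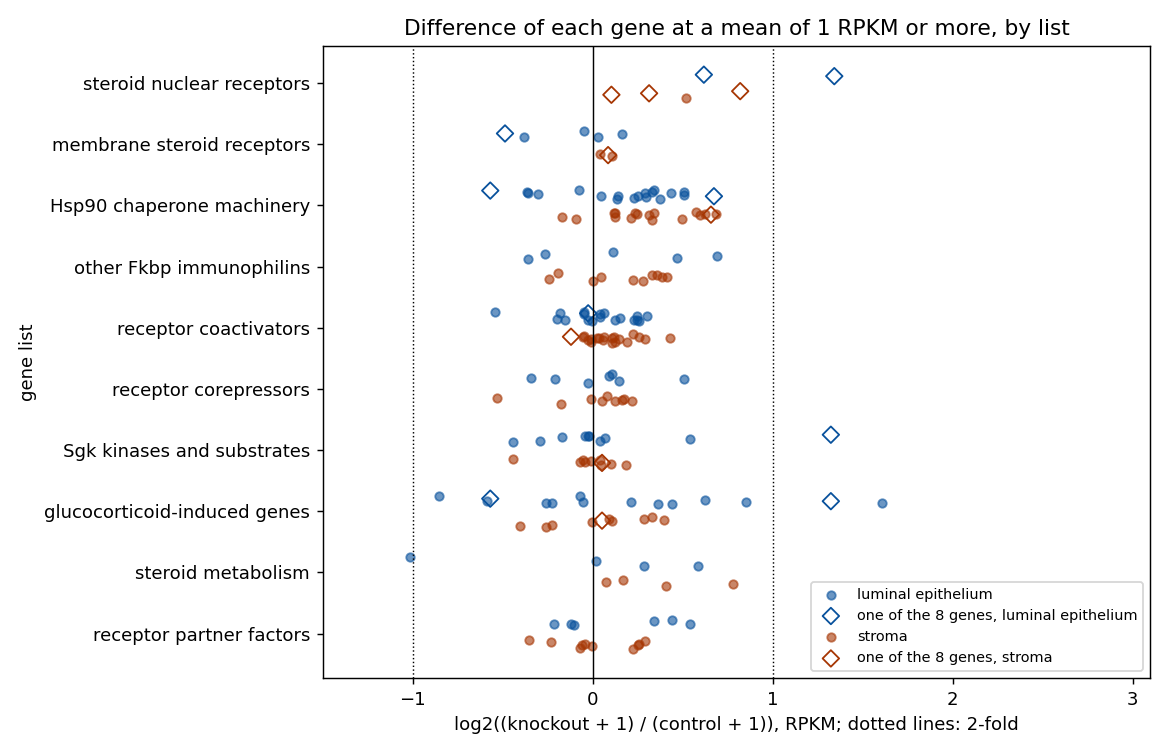
Log2 difference, labelled knockout over control with 1 RPKM added to each, of every gene at a mean of at least 1 RPKM in the 10 lists (blue luminal epithelium, brown stroma), with diamonds for the 8 genes and dotted lines at 2-fold. Pgr at 1.34, Sgk1 at 1.32 and Nfkbia at 1.61 in epithelium lie beyond the right line, and Hsd17b4 at -1.01 lies beyond the left.

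The second comparison set luminal epithelium against stroma, across tables that were normalized separately. In the controls 4 of the 8 genes were 2-fold higher in epithelium (19.6% of 8030 genes) and 1 was lower (12.1%). In the libraries labelled knockout 3 were higher (20.7% of 8350 genes) and 1 lower (10.7%). By counting limits 6 of 8 were higher and 1 lower in both genotypes, against 47.7% and 19.4% of genes in the controls and 61.4% and 25.4% in the others. Upper quartile scaling turned the split over all genes from 1574 higher and 973 lower to 997 and 1496 in the controls, and from 1730 and 890 to 1043 and 1351 in the others. Sgk1 was 11.2-fold higher in epithelium in the controls, with limits of 9.17 and 13.7, and 27.3-fold higher in the libraries labelled knockout, with limits of 24.0 and 31.0. Fkbp4 was 4.32-fold and 4.19-fold higher, and Ncoa2 4.41-fold and 5.06-fold higher. Fkbp5 was 5.72-fold higher in the controls (limits 4.02 and 8.16) and 3.18-fold higher in the libraries labelled knockout (2.57 and 3.95). Nr3c1 was 4.16-fold lower in epithelium in the controls (limits 2.71 and 6.81) and 3.88-fold lower in the others (3.44 and 4.40).

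Pgr, Esr1 and Pgrmc1 had ratios of epithelium to stroma between 0.961 and 1.62. The Pgr ratio of epithelium to stroma was 0.997 in the controls (limits 0.839 and 1.17) and 1.49 in the libraries labelled knockout (1.43 and 1.56). With upper quartile scaling, which moved the median of all genes by -0.42 in this comparison, the log2 difference of Pgr in the libraries labelled knockout went from 0.52 to -0.03. In the controls that of Esr1 went from 0.32 to -0.15 and that of Pgr from -0.003 to -0.44. That of Pgrmc1 in the libraries labelled knockout went from -0.05 to -0.60. Pgrmc1 was 1.48-fold higher in epithelium in the controls, with limits of 1.23 and 1.76, and its ratio in the libraries labelled knockout was 0.961, with limits of 0.890 and 1.04. The summed level of epithelial markers in the stromal libraries was at most 0.403% of that in epithelium of the same genotype.

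**Figure D5:**
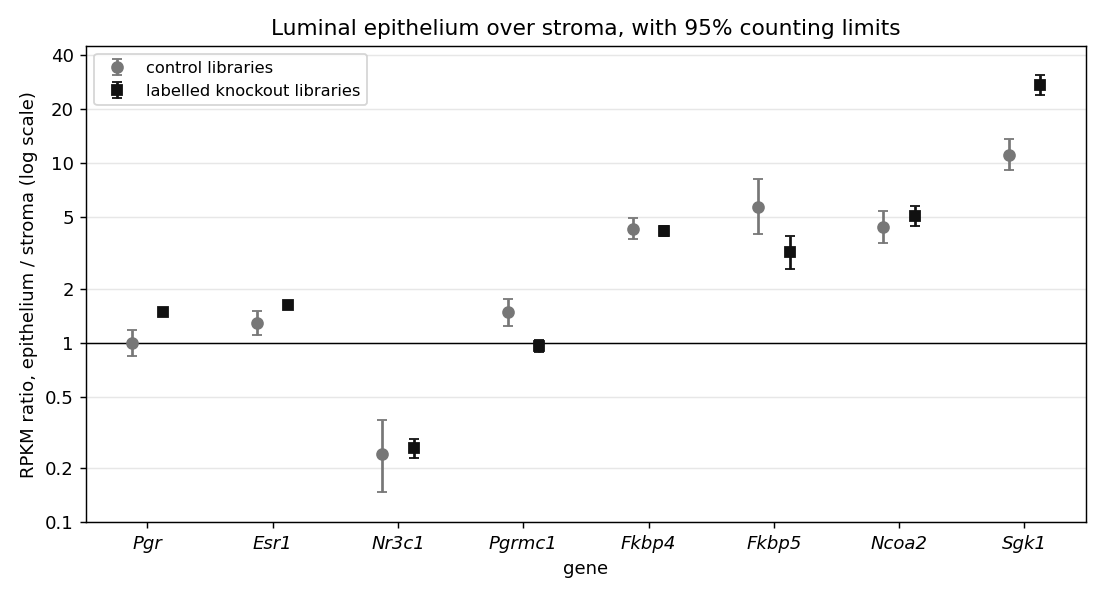
Ratio of RPKM in luminal epithelium over stroma for each gene (log scale), with grey circles for the controls, black squares for the libraries labelled knockout and bars for 95% counting limits; the 2 tables were normalized separately. Sgk1 stands highest at 11.2 and 27.3, and Nr3c1 is lowest at 0.241 and 0.258.

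In the authors' deposited table for epithelium none of the 8 genes was marked significant, with the lowest q-value 0.704 for Pgr, at a log2 fold change of 1.55 and a p-value of 0.163, while 94 genes were marked. In the authors' deposited table for stroma all 8 had a q-value that rounds to 1 and 5 genes were marked. That test compared 2 libraries, not the genotypes.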

How the data were processed

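RNA was measured in 4 libraries, 1 per group, after laser capture, PicoPure extraction and stranded, ribosome-depleted total RNA preparation, per the labels' protocols. The authors deposited RPKM in 2 tables, per the file headers, 1 per compartment. The same tables hold the authors' log2 fold change, test statistic, p-value and q-value for each gene, per the file headers. The submitters' processing notes name build mm9, Cufflinks 2.0.2, TopHat2 2.0.5, TopHat and CASAVA 1.8.2; settings and use of strand in counting are not given in the sources used here, so sense and antisense reads cannot be told apart.

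Differences were log2 of RPKM plus 1, at a mean of at least 1 RPKM. With 1 library per group no test was run. Named genes were the 8 genes, up to 4 others per list with the largest difference, the 3 genes nearest in pattern to Pgr, Esr1 and Sgk1, and Msx1 and Msx2; Sgk2, Sgk3, Esr2 and Nr3c2 were named after their values were seen. Some genes that this rule names are not reported here. Genes and lists were chosen with earlier results of these data known. Depth was fitted so that low RPKM times transcript length less 200 bp (GENCODE vM21, found for 97.3% of genes) gave whole reads; between 67.8% and 69.5% of those values lay within 0.2 of one. Starts were raised by 1, since 7152 of 20601 loci matched RefSeq gene lengths when counted from 0 and 452 when counted from 1. Alternatives changed the pseudocount, scaling or minimum. Code was tested on simulated data. Tools were scipy 1.17.1, pandas 2.3.3, numpy 2.4.6, matplotlib 3.10.9 and Python 3.11.15.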

Additional observations from a re-analysis of the deposited data

Results flagged for a closer look

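Fkbp5 and Pgrmc1 had ratios of labelled knockout to control on opposite sides of 1 in the 2 compartments. Fkbp5 was at 0.563 in luminal epithelium and 1.01 in stroma, and the epithelial ratio was 0.556 times the stromal one, with exact conditional counting limits of 0.364 and 0.840. Pgrmc1 was at 0.694 in luminal epithelium and 1.07 in stroma, a quotient of 0.651 with limits of 0.538 and 0.791. The difference between compartments was not tested across samples, since each group holds 1 library. Both stromal ratios had counting limits that reach 1, and both stromal log2 differences turned negative with upper quartile scaling, at -0.04 for Fkbp5 and -0.01 for Pgrmc1.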

How the results depend on the processing

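Among the genes described here, the counts at least 2-fold apart kept their values under both rescalings. With a pseudocount of 5 RPKM the count higher in epithelium labelled knockout was 1 in place of 2, since Pgr was at 0.88. With that pseudocount, epithelium against stroma gave 2 higher and 0 lower in the controls and 0 lower in the libraries labelled knockout. A minimum of 5 RPKM likewise gave 2 higher and 0 lower in the controls and 0 lower in the others, because fewer genes passed. Across all alternatives 41 of these counts were within 1.5 times of the reported ones and 7 were not. Between the genotypes, the count lower in epithelium and both stromal counts were 0 as reported and under every alternative. Those agreements say little about stability. Of the log2 differences of single genes, 128 moved by no more than the distance from the ratio to its counting limit, and 51 moved by more. That distance was laid around the difference with 1 RPKM added, so a difference among the 128 can lie outside the printed limits. Among the 128, 32 with no minimum and 19 with a minimum of 5 RPKM could not move, since a minimum does not enter the difference. No difference of at least 1 changed sign. With sums without the 50 most abundant genes, Pgr was at 1.11 and Sgk1 at 1.08 in epithelium. The stromal differences of Fkbp5, Pgrmc1 and Sgk1 changed sign with upper quartile scaling, as did those of Esr1 and Pgr between compartments. Counts of the gene lists, added after the data were seen, moved by over 1.5 times in 4 cases and not in 236. The lists include Pgr and Sgk1. Every stromal list count was 0 under every setting, and most epithelial ones were 0 as reported. Most of the 236 thus set 0 beside 0 and say little about stability. With a pseudocount of 5 RPKM, steroid nuclear receptors higher and steroid metabolism genes lower in epithelium each went from 1 to 0. Glucocorticoid-induced genes lower there went from 0 to 1 with a pseudocount of 0.1 RPKM and with sums without the 50 most abundant. The shallow epithelial control limits what low genes such as Nr3c1 and Fkbp5 can show. No paired analysis of genotype was possible because the genotypes share no animal and each group holds 1 library. Epithelium against stroma, which the series text places within 1 animal per genotype, was not tested across the separately normalized tables.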

Other observations

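The balance of Pgrmc1 to Pgr, 2 genes tied to progesterone, differed between libraries. Pgrmc1 over Pgr in RPKM was 3.91 in the epithelial control (counting limits 3.12 and 4.90) and 0.925 in the epithelial library labelled knockout (0.875 and 0.977). In stroma it was 2.64 (2.40 and 2.90) and 1.43 (1.34 and 1.54). Pgr over Nr3c1 was 7.08 in the epithelial control (4.499 and 11.8) and 17.5 in its partner (15.8 and 19.5), and 1.71 (1.54 and 1.89) and 3.03 (2.81 and 3.26) in stroma.

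Genes with the nearest pattern over the 4 libraries were sought among 2762 named genes that reached 5 RPKM, by the distance between log2(RPKM + 1) values centred on each gene's mean. Likeness over 4 points is a description only, and the tables were normalized separately. Nearest to Pgr was Creld2, at a distance of 0.14, with 1.71, 6.58, 1.82 and 3.65 RPKM in the epithelial control, its partner, the stromal control and its partner. Amd2 and Hspa5 followed at 0.32 each, and 17 genes lay within 0.5. Creld2 and Hspa5 encode proteins of the endoplasmic reticulum that are induced when folding is disturbed. Nearest to Esr1 were Slc39a7, Sec61a1 and Memo1, at 0.05, 0.08 and 0.09, but 497 genes lay within 0.5 of Esr1. Nearest to Sgk1 were Rab20 at 0.29 and Lbp and Ptgs1 at 0.35 each, with 10 genes within 0.5. Rab20 was at 9.78 and 20.3 RPKM in epithelium and 0.284 and 0.193 RPKM in stroma.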
